A study of Mus musculus with 24 samples.

Results

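Slc17a7, Slc17a6, Tbr1, Neurod6, Neurod2 and Nrgn, genes by which excitatory neurons of the forebrain and above all of the cortex are recognised, were followed in every library of a study of the mouse striatum. They were taken by symbol from a table of 24079 genes, and each of the 6 symbols was found in 1 row. The choice was made with results of these data in view. Nrgn was chosen by its genotype difference in whole lysates of the dorsal striatum (DS) and the others as markers of cortical neurons, so that contrast, and the translational efficiency contrast that contains it, are given here as descriptions without a test. The groups were wild-type mice and rpS6 knockin littermates (rpS6P-/-), in which the phosphorylation sites of ribosomal protein S6 are mutated to alanine in every cell. Both genotypes shared a mixed C57Bl/6/Sv129/ICR background, both sexes were used and none was treated. RNA came from the nucleus accumbens (Acb) and the DS, either from heavy polysomal fractions, which hold mRNAs loaded with many ribosomes, or from whole lysates, which give the cytosolic level of an mRNA. Each of the 8 groups held 3 libraries, 24 in all, and each library was made from pooled mice. The age of the mice was not given in the sources used here.

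Excitatory cortical neurons pack glutamate into synaptic vesicles with VGLUT1, the product of Slc17a7, while thalamic and other subcortical neurons mainly use VGLUT2, the product of Slc17a6. Tbr1 (a T-box factor of deep cortical layers), Neurod2 and Neurod6 (basic helix-loop-helix factors) are transcription factors of cortical projection neurons. Nrgn encodes neurogranin, a small postsynaptic protein that binds calmodulin through an IQ motif, and its mRNA is carried into dendrites. The neurons of the striatum are mostly GABAergic medium spiny neurons. Their excitatory input comes from cortical and thalamic axons, whose cell bodies lie outside the region. Medium spiny neurons also make Nrgn.

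The shallowest library held 9280589 assigned reads and the deepest 34703044, and the medians were 19862908 for heavy fractions and 14889586 for lysates. Values are given as CPM, the number of reads of a gene relative to the size of its library, normalized by the TMM method over all 24 libraries. Gene counts cannot show the mutations of rpS6, so the genotype labels could not be checked here. The reads behind the lowest values were few: Slc17a6 had 45 to 912 reads per library, Neurod6 10 to 356 in the Acb and Neurod2 12 to 365 in the Acb. The 10 medium spiny neuron markers, among them Ppp1r1b (DARPP-32) at 824 to 2300 CPM and Penk (proenkephalin) at 517 to 2190 CPM, were counted in all 24 libraries.

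The 6 genes lie on 5 chromosomes of the mouse genome (GRCm38.p6). Tbr1 is at chr2:61802863-61814114 on the plus strand and Neurod6 at chr6:55677818-55681263 on the minus strand. Slc17a7 (chr7:45163921-45176139) and Slc17a6 (chr7:51621830-51671126) are on the plus strand of the same chromosome, the former spanning the microRNA gene Mir7055 and the latter overlapping Gm33136. Nrgn is at chr9:37544493-37552745 and Neurod2 at chr11:98325415-98329645, both on the minus strand. Nrgn has by far the shortest coding sequence of the 6, with 234 bases in a longest transcript of 1453 bases, and the others have 1011 bases (Neurod6) to 2043 bases (Tbr1).

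The promoters of 3 genes are printed because these genes carry the comparisons below: Nrgn and Neurod2 for genotype, and Slc17a7 as the cortical gene beside which they are read. Each is the 250 bases before the first transcript start in RefSeq (GRCm38.p6), written 5′ to 3′ along the strand of the gene, with capitals marking a match to CAGATG on either strand (CATCTG when read on the other), an E-box that NeuroD factors are known to bind.
Nrgn, chr9:37552746-37552995, minus strand: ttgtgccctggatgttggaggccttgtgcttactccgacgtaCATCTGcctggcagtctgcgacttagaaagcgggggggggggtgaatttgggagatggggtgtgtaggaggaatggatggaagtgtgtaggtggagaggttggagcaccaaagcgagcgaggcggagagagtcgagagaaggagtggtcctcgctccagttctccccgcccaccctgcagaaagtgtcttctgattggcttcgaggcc
Neurod2, chr11:98329646-98329895, minus strand: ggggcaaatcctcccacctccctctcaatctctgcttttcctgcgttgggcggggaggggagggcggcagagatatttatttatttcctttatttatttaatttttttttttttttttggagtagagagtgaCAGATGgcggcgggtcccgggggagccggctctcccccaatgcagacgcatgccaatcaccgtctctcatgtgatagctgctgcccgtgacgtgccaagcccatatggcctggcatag
Slc17a7, chr7:45163671-45163920, plus strand: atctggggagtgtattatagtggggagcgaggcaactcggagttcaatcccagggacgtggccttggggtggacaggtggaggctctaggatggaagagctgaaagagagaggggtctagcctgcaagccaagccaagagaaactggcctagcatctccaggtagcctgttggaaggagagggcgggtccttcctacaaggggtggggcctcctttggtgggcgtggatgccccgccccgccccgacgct
The motif occurred 1 time in the windows of Nrgn and Neurod2 and in the window of the second Slc17a6 start, and not in those of Slc17a7, Tbr1, Neurod6 or the first Slc17a6 start. Of 32851 promoter windows of the same length, 14.4% held it. The related E-box CAGCTG, held by 13% of all windows, was in none of the 7 windows. A match describes the letters and does not show binding.

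The first comparison asked how the 2 regions differ. In whole lysates and in heavy polysomal fractions alike, 5 of the 6 genes were lower in the Acb than in the DS and Slc17a6 was higher, with no overlap between the 6 libraries of each region for any of them. Such a gap was seen for 8.42% of all genes in heavy fractions and 10.2% in whole lysates. The test was edgeR's quasi-likelihood test with Benjamini-Hochberg adjustment and genotype as a covariate. It called 19.8% of 16880 genes in heavy polysomal fractions (9.44% higher in the Acb and 10.3% lower) and 19.3% of 16364 genes in whole lysates (9.71% higher and 9.56% lower). Against that background all 6 genes passed in both kinds of RNA. In bulk RNA, fewer cells of a type and less RNA per cell cannot be told apart.

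**Figure D1:**
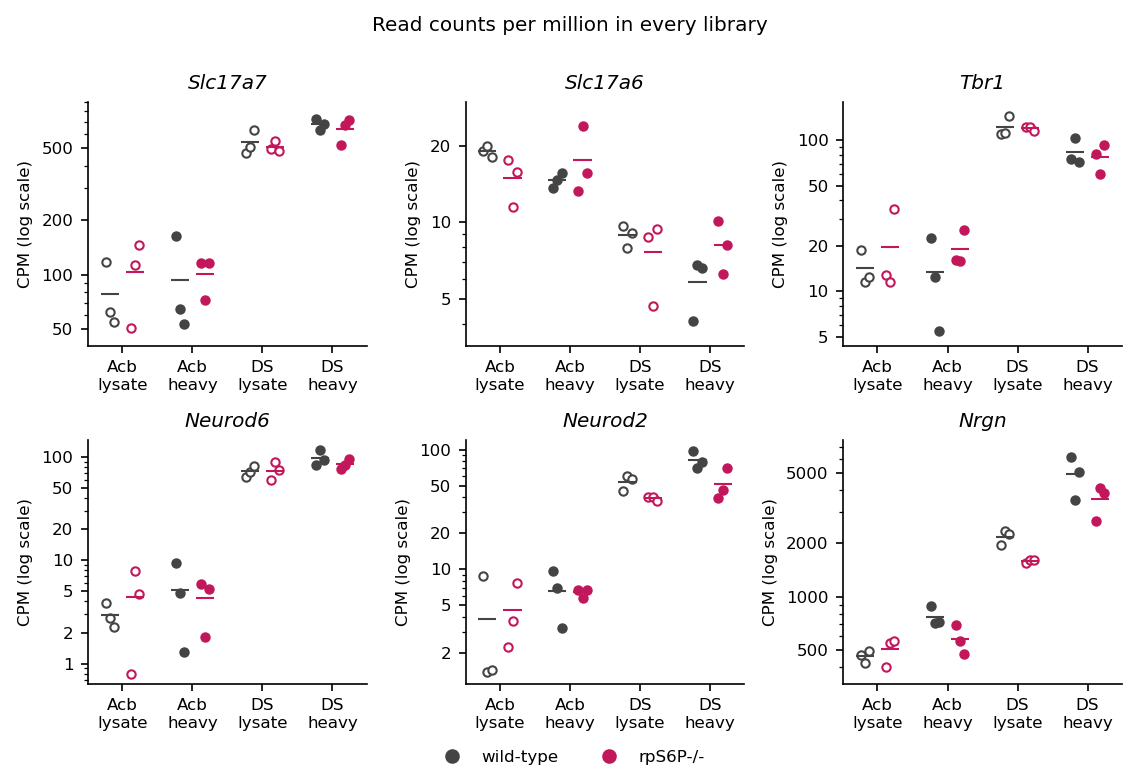
CPM (log scale) of each gene in all 24 libraries, with open points for whole lysates, filled points for heavy polysomal fractions, grey for wild-type and magenta for rpS6P-/- mice, and bars at the mean of 3. In 5 panels the DS libraries sit above the Acb libraries without overlap, and in the Slc17a6 panel the order is turned.

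Slc17a7, the main vesicular glutamate transporter of the cortex, was counted at 471 to 633 CPM in whole DS lysates (median 502) and at 50.8 to 146 CPM in whole Acb lysates (median 88.0). In heavy polysomal fractions it was at 523 to 722 CPM in the DS (median 672) and at 53.4 to 164 CPM in the Acb (median 94.1). The Acb was thus lower by log2 fold changes of -2.50 ± 0.14 (SE, n = 6 and 6; 5.64-fold, adjusted p = 2.99e-21) in lysates and -2.74 ± 0.21 (6.70-fold, adjusted p = 3.97e-09) in heavy fractions. The Acb libraries were spread more widely than those of the DS, with a coefficient of variation of 43.9% in lysates and 42.7% in heavy fractions against 11.5% and 11.1%. In the order of the 8 group means, neighbouring groups overlapped everywhere except at the step from the lowest DS group to the highest Acb group.

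Slc17a6, the subcortical transporter, ran the other way at much lower counts. It was at 11.5 to 20 CPM in whole Acb lysates (median 17.8) and 4.72 to 9.68 CPM in whole DS lysates (median 8.95), and at 13.3 to 23.8 CPM and 4.11 to 10.1 CPM in the respective heavy fractions. The Acb was higher by 1.07 ± 0.22 on the log2 scale in lysates (2.09-fold, adjusted p = 0.000151) and by 1.21 ± 0.20 in heavy fractions (2.31-fold, adjusted p = 0.000137). Here too the step between the regions was the only step in the order of groups without overlap. The number of Slc17a7 reads per Slc17a6 read was therefore 2.89 to 12.1 in the 12 Acb libraries and 48.7 to 176 in the 12 DS libraries. Per kilobase of the longest transcript, mean Slc17a7 in whole lysates was 170 CPM in the DS and 29.5 CPM in the Acb, and mean Slc17a6 was 2.0 and 4.1 CPM.

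Among the transcription factors, Neurod6 differed most between regions. It was at 59.1 to 88.1 CPM in whole DS lysates (median 72.6) and at 0.80 to 7.80 CPM in whole Acb lysates (median 3.31), a log2 fold change of -4.29 ± 0.22 (19.6-fold, adjusted p = 4.21e-23). In heavy fractions it was at 76.7 to 117 CPM in the DS and 1.30 to 9.33 CPM in the Acb (-4.27 ± 0.32, 19.3-fold, adjusted p = 2.24e-09). By size of change it ranked 46 among the 1742 genes called lower in heavy fractions and 47 among the 1564 called lower in lysates. The Acb values rested on 10 to 356 reads and had coefficients of variation of 65.2% in lysates and 61.8% in heavy fractions.

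Neurod2 was at 37.1 to 60.4 CPM in whole DS lysates (median 42.9) and at 1.37 to 8.73 CPM in whole Acb lysates (median 2.96), which is 10.5-fold lower (log2 fold change -3.39 ± 0.26, adjusted p = 4.20e-16). The corresponding heavy fractions held 39.8 to 97.2 and 3.23 to 9.57 CPM (10.1-fold lower, -3.34 ± 0.23, adjusted p = 4.69e-10). Tbr1 was at 110 to 144 CPM in whole DS lysates (median 119) and at 11.5 to 34.8 CPM in whole Acb lysates (median 12.7), a log2 fold change of -2.81 ± 0.16 (adjusted p = 2.96e-21). In heavy fractions Tbr1 was at 59.4 to 104 CPM in the DS and 5.45 to 25.4 CPM in the Acb (-2.32 ± 0.25, adjusted p = 4.56e-07). The highest Acb value of Tbr1 belonged to the whole lysate of rpS6P-/- replicate 3, at 34.8 CPM, against 11.5 to 18.7 CPM in the other 5 Acb lysates. In the order of group means, DS groups stood above Acb groups without overlap for all 3 factors. Among DS groups, lysates stood above heavy fractions for Tbr1. For Neurod2, wild-type heavy fractions were apart from the next group by mean, the wild-type lysates. They overlapped with rpS6P-/- heavy fractions, which reached 70.9 CPM against a lowest wild-type value of 70.2 CPM. The remaining neighbours overlapped.

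Per kilobase of the longest transcript Nrgn had the highest level of the 6 genes in every group, with means of 318 to 3380 CPM against 25.5 to 220 CPM for Slc17a7. It was at 1550 to 2350 CPM in whole DS lysates (median 1780) and at 404 to 561 CPM in whole Acb lysates (median 482), a log2 fold change of -1.91 ± 0.08 (3.77-fold lower, adjusted p = 5.81e-26). In heavy fractions the ranges were 2690 to 6150 CPM in the DS and 476 to 886 CPM in the Acb (-2.64 ± 0.15, 6.25-fold lower, adjusted p = 2.78e-11). Nrgn varied less among Acb lysates (13.3%) than among DS lysates (18.7%, a figure that includes the genotype difference given later). In the order of its group means, heavy fractions came before lysates and the DS before the Acb. Heavy fractions and lysates of rpS6P-/- mice overlapped in the Acb. Wild-type and rpS6P-/- groups were apart in DS lysates and in Acb heavy fractions. Nrgn reads per Slc17a7 read were 3.84 to 8.98 in whole Acb lysates and 2.94 to 4.62 in whole DS lysates. In heavy fractions they were 4.12 to 13.5 in the Acb and 5.14 to 8.51 in the DS. The ranges of the regions overlapped in both kinds of RNA, and a difference in this ratio was not tested.

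**Figure D2:**
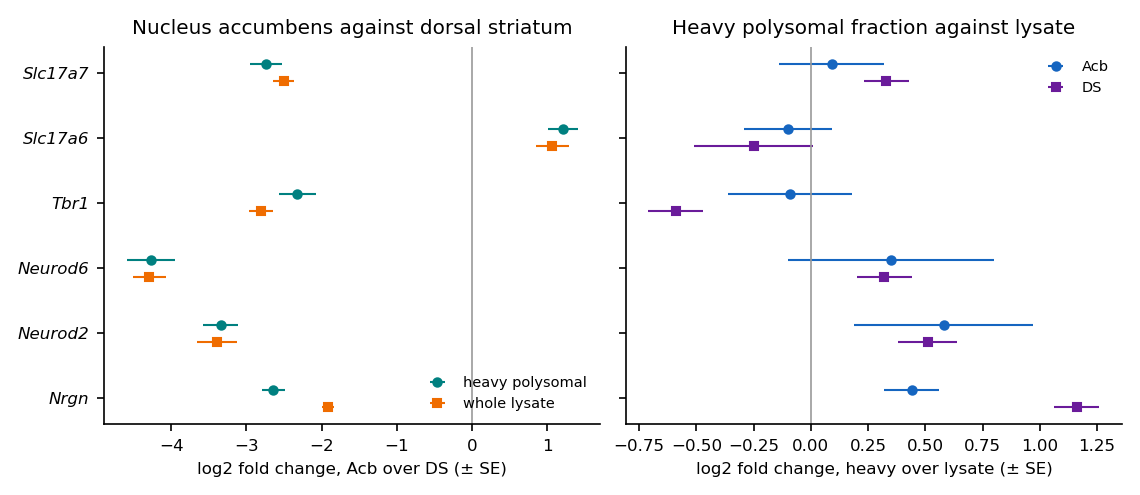
Log2 fold changes (± SE) of the 6 genes between regions (left, 6 against 6 libraries in each kind of RNA) and between heavy polysomal fractions and whole lysates (right, 6 against 6 libraries in each region). On the left, 5 genes lie between -4.29 and -1.91 and Slc17a6 lies at 1.07 and 1.21. On the right, Nrgn in the DS lies at 1.16 and Tbr1 in the DS at -0.59.

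Within the Acb, the summed level of Slc17a7, Tbr1, Neurod6 and Neurod2 differed from library to library. In heavy fractions it was 206, 89.2 and 63.4 CPM in wild-type replicates 1 to 3 and 144, 96.2 and 153 CPM in rpS6P-/- replicates 1 to 3. In whole lysates it was 149, 78.2 and 71.4 CPM in wild-type and 66.6, 136 and 193 CPM in rpS6P-/- replicates. Wild-type replicate 1 was the highest of its group in both kinds of RNA, whereas among rpS6P-/- mice replicate 1 was the lowest lysate and replicate 2 the lowest heavy fraction. In the DS the same sum was 690 to 977 CPM. Across the 6 lysates of a region, the level of a gene in the lysate and in the heavy fraction with the same number were compared in 12 relations. For Slc17a7 in the Acb Pearson's r was 0.484 (exact permutation p = 0.286) and Spearman's rho 0.314 (exact permutation p = 0.564), and r was 0.763 without the 2 lysates farthest from the median. The lowest p adjusted over the 12 exact permutation tests was 0.583 (Slc17a6 in the Acb, r = -0.918 with p = 0.0486, rho = -0.486 with p = 0.356, n = 6), and without the 2 farthest lysates this r was 0.152, so the relation rested on those samples.

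Other markers of cortical projection neurons moved between regions in the same direction as the 5 genes, though not all of them. Of 16 such markers, 9 were lower and 1 higher in whole Acb lysates (median log2 fold change -0.94, against 0.01 over all genes tested), and 8 were lower and 3 higher in heavy fractions (median -0.86, against 0.02). Sv2b, a synaptic vesicle protein, fell from 326 to 400 CPM in DS lysates to 125 to 191 CPM in Acb lysates (-1.24, adjusted p = 1.33e-17). Rasgrf2 and Etv1 did not pass in lysates and were higher in Acb heavy fractions (0.65, adjusted p = 0.00485, and 0.37, adjusted p = 0.0449), and Rorb was lower in Acb lysates alone (-0.47, adjusted p = 0.0136). The summed level of the 16 markers was 357 to 422 CPM in Acb and 661 to 750 CPM in DS lysates, a smaller gap than that of the 4 genes summed above.

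Markers of neighbouring structures and of other cells also differed between regions. Of 3 claustrum and endopiriform markers, 2 were lower in the Acb in both kinds of RNA, among them the nuclear receptor Nr4a2 at 2.99 to 6.90 CPM in Acb and 56.1 to 78.9 CPM in DS lysates. Of 4 thalamic markers, 2 were higher in Acb lysates and 3 in Acb heavy fractions, as Slc17a6 was. Among the latter, Gbx2 was scarce, at 0 to 0.727 CPM in DS and 1.59 to 4.74 CPM in Acb heavy fractions. Tcf7l2 was at 14.5 to 27.2 CPM in Acb and 3.97 to 6.53 CPM in DS lysates (2.09, adjusted p = 4.91e-11). In Acb lysates 3 of 5 astrocyte markers, 4 of 4 microglia markers and 4 of 5 oligodendrocyte markers were higher, and 0 of 4 endothelial markers passed in either direction. Of 3 choroid plexus markers tested there, 1 was higher (Ttr, at 0 to 13.6 CPM in Acb and 0 to 0.924 CPM in DS lysates). Of 10 medium spiny neuron markers, 4 were higher and 5 lower in Acb lysates, with a median of -0.22. The summed levels in lysates were 664 to 832 CPM in the Acb and 381 to 504 CPM in the DS for astrocyte markers, and 4620 to 5040 and 4870 to 5510 CPM for medium spiny neuron markers. The part of cortical or thalamic tissue, or of any other cell type, in the levels of the 6 genes was not tested.

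Families to which the genes belong moved between regions unevenly. In the list of vesicular glutamate transport and glutamate supply, 3 of 6 genes were higher and 2 lower in Acb lysates. Glul (glutamine synthetase) and Slc1a2 (the glial glutamate transporter GLT-1) rose by 0.25 and 0.47 on the log2 scale (adjusted p = 0.00477 and 3.83e-06). Of the NeuroD and T-box brain factors, 4 of 6 were lower, namely the 3 factors above and Neurod1 (-2.05, adjusted p = 0.00416), and Eomes and Neurod4 were at 0 to 2.06 and 0 to 0.683 CPM. Of calmodulin and its IQ-motif and kinase partners, the group of Nrgn, 9 of 11 were lower and 1 higher in Acb lysates (median -0.47). The calmodulin genes Calm2 and Calm3 fell by 0.45 and 0.40 on the log2 scale (adjusted p = 2.16e-08 and 7.52e-07). Of 10 dendritic mRNAs, 7 were lower in Acb lysates and 6 in Acb heavy fractions (medians -0.52 and -0.51). Camk2a, the kinase mRNA best known from dendrites, had a log2 fold change of -0.68 in lysates (adjusted p = 1.42e-11) and -0.36 in heavy fractions (adjusted p = 0.0955). Nrgn, a member of both lists, had the largest size of change in each.

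The second comparison asked which of the mRNAs were held in heavy polysomal fractions relative to the whole lysate. Again edgeR's quasi-likelihood test was used, with genotype as a covariate. It called 37.0% of 16544 genes in the DS (19.5% higher in heavy fractions and 17.5% lower) and 29.8% of 16687 genes in the Acb (15.6% higher and 14.3% lower). In the DS 4 of the 6 genes were higher and 1 was lower. In the Acb 1 was higher and 0 were lower.

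Nrgn rose in heavy fractions in both regions. In the DS it was 2.24-fold higher than in lysates (log2 fold change 1.16 ± 0.10, adjusted p = 4.69e-13), with no overlap (19.4% of genes had none), and ranked 291 among the 3220 genes called higher. In the Acb it was 1.35-fold higher (0.44 ± 0.12, adjusted p = 0.00653), with overlap. The size of the rise depended on the setting. Over settings other than leaving out a library it was 0.88 to 1.16 in the DS and 0.41 to 0.89 in the Acb. Each heavy fraction was matched to the lysate with the same number. The log2 ratio within these pairs was 1.14 ± 0.38 (SD, n = 6) in the DS and 0.46 ± 0.46 in the Acb. It was above 0 in 5 of 6 pairs in the Acb and in 6 of 6 in the DS, where this follows from the lack of overlap. The difference between regions in this ratio had p = 0.0195 in a two-sided exact permutation test and 0.117 after adjustment over the 6 genes, and thus failed the correction. This test was chosen after the values had been seen.

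Tbr1 was the only 1 of the 6 genes called lower in heavy fractions than in lysates of the DS. It fell by 0.59 on the log2 scale (SE 0.12, 1.5-fold, adjusted p = 3.78e-05) without overlap, from 110 to 144 CPM in lysates to 59.4 to 104 CPM in heavy fractions. The ratio was -1.06 to -0.10 in the 6 DS pairs. That it was below 0 in each follows from the lack of overlap and adds nothing to it. Slc17a7 and Neurod2 rose in DS heavy fractions by 0.33 ± 0.10 (adjusted p = 0.00457) and 0.51 ± 0.13 (adjusted p = 0.00139). Neurod6 rose by 0.32 ± 0.12 (adjusted p = 0.0283), a call lost when a trend on coding length was removed (0.04, adjusted p = 0.842), when the abundant RNA Bc1 was left out (0.28, adjusted p = 0.0513) and without any 1 of 5 libraries (heavy fractions of wild-type replicate 2 and rpS6P-/- replicate 3, lysates of wild-type replicates 1 and 2 and rpS6P-/- replicate 1; adjusted p 0.0564 to 0.0981). Slc17a6 had -0.25 ± 0.26 (adjusted p = 0.515). So the genes taken as cortical markers did not share a direction. Neurod2 stood on the other side of 0 from Tbr1, and so did Neurod6, though with a call that did not hold in every setting.

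**Figure D3:**
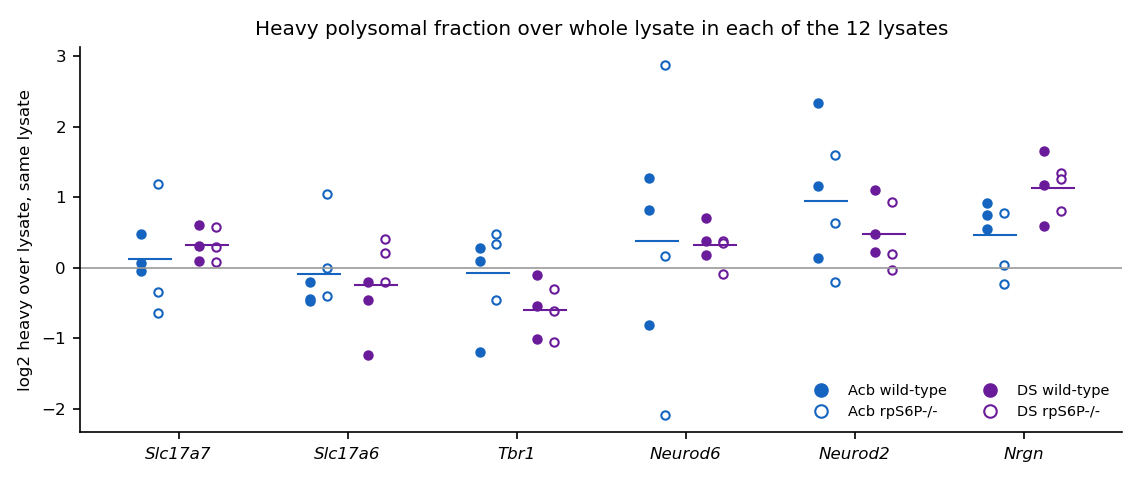
Log2 ratio of CPM in the heavy polysomal fraction to CPM in the whole lysate with the same number, for each gene. Blue points are the 6 Acb and purple points the 6 DS pairs (filled for wild-type, open for rpS6P-/-), with bars at the mean of 6. Nrgn lies between 0.59 and 1.65 in the DS, Tbr1 between -1.06 and -0.10, and the Acb ratios of Neurod6 spread from -2.09 to 2.88.

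In the Acb the 5 other genes had log2 fold changes of -0.10 to 0.58 between heavy fractions and lysates with standard errors of 0.19 to 0.45, and none passed. Neurod2 passed without the lysate library of wild-type replicate 1 (1.14, adjusted p = 0.0374). In the list of calmodulin and its partners, 7 of 11 genes were higher and 3 lower in DS heavy fractions (median 0.63, against 0.03 over all genes). Calm2 and Calm3 rose by 1.30 and 0.80 there (adjusted p = 1.87e-15 and 3.64e-10). Of the 10 dendritic mRNAs 3 were higher and 5 lower (median -0.34), with Camk2a at -0.98 (adjusted p = 3.07e-12) and Map2, a microtubule-associated protein of dendrites, at -0.52 (adjusted p = 6.82e-06). The 3 dendritic mRNAs called higher were Nrgn, Dlg4 (0.36, adjusted p = 0.00454) and Homer1 (0.25, adjusted p = 0.0468). In the calmodulin list the 3 called lower were the kinases Camk2a, Camk2b (-0.45, adjusted p = 8.09e-05) and Camk4 (-0.43, adjusted p = 0.00036). Nrgn thus shared its sign with part of each list.

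The third comparison, that of genotype, was the purpose of the study. In whole lysates of the DS, from which the choice of Nrgn came, Nrgn was at 1950, 2350 and 2260 CPM in wild-type replicates 1 to 3 and at 1550, 1610 and 1610 CPM in rpS6P-/- replicates 1 to 3. The rpS6P-/- libraries lay close together (SD 36.5 CPM, n = 3, against 205 CPM in wild-type), all below the wild-type ones. The log2 fold change was -0.48 ± 0.08, or 1.39-fold lower, and -0.56 to -0.42 when each library was left out in turn. Because this difference chose Nrgn, neither the standard error nor that range shows that it would recur in other mice. Neurod2 also had no overlap, at 45.2, 60.4 and 57.1 CPM in wild-type and 40.6, 40.3 and 37.1 CPM in rpS6P-/- mice (-0.48 ± 0.16). The other 4 genes overlapped, with log2 fold changes of -0.10 ± 0.10 for Slc17a7, -0.03 ± 0.12 for Tbr1, 0.01 ± 0.14 for Neurod6 and -0.24 ± 0.34 for Slc17a6. Over all 15601 genes 0.122% were called and 13.6% had no overlap between genotypes, and nothing is read from the counts of the 6 genes since this contrast was used to choose them.

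The same values can be set beside Slc17a7, again as a description. Nrgn reads per Slc17a7 read were 4.15, 4.62 and 3.57 in wild-type and 3.12, 2.94 and 3.35 in rpS6P-/- replicates. Neurod2 reads per Slc17a7 read were 0.0958, 0.119 and 0.0902 against 0.0820, 0.0737 and 0.0773. The summed level of the 16 other cortical markers was 661 to 747 CPM in wild-type and 720 to 750 CPM in rpS6P-/- lysates, with 0 of 16 called, and that of the medium spiny neuron markers was 4870 to 5510 and 5090 to 5340 CPM, with 0 of 10 called. The median log2 fold changes of the calmodulin list and of the dendritic mRNAs, both of which hold Nrgn, were -0.08 and -0.24, against 0.00 over all genes.

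**Figure D4:**
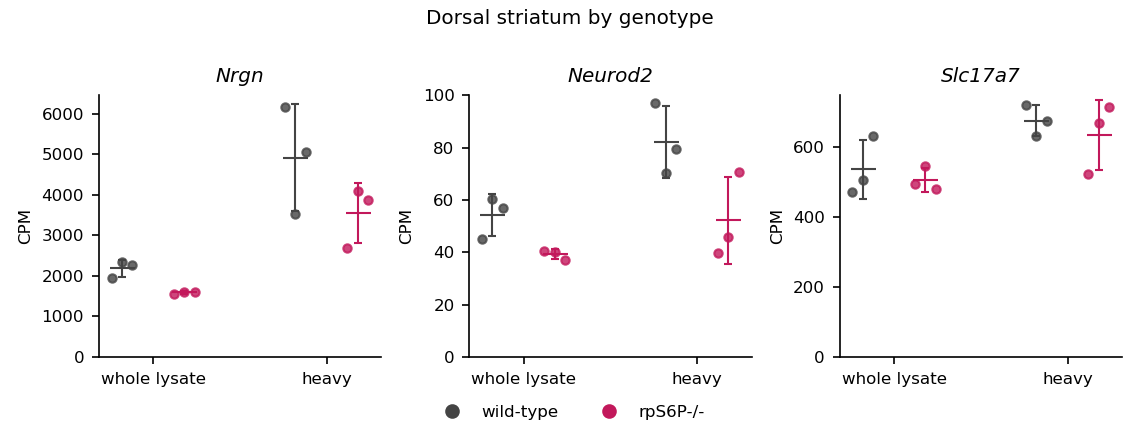
CPM of Nrgn, Neurod2 and Slc17a7 in the DS (linear axes from 0), with points for the 3 libraries of each group and bars for the mean ± SD, grey for wild-type and magenta for rpS6P-/- mice. Genotypes are apart for Nrgn and Neurod2 in whole lysates, and overlap for all 3 genes in heavy polysomal fractions.

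In heavy polysomal fractions of the DS, made from the same lysates and thus not independent of that contrast, 0 of the 6 genes passed edgeR's quasi-likelihood test, where 0.0440% of 15896 genes did. Nrgn was at 6150, 3530 and 5060 CPM in wild-type and 2690, 4080 and 3870 CPM in rpS6P-/- replicates. The lowest wild-type library lay below 2 of the 3 rpS6P-/- libraries, so the groups overlapped. The log2 fold change was -0.46 ± 0.17 (adjusted p = 0.660). Of 6 other settings it passed only with a trend on coding length removed (-0.85, adjusted p = 0.00306). Of 6 fits without 1 library it passed only without wild-type replicate 2, the lowest of its group (-0.65, adjusted p = 0.0416). Neurod2 was at 97.2, 70.2 and 79.5 CPM in wild-type and 39.8, 45.9 and 70.9 CPM in rpS6P-/- replicates (-0.65 ± 0.20, unadjusted p = 0.00287, adjusted p = 0.459). Only rpS6P-/- replicate 3 reached the wild-type range. The other 4 genes had log2 fold changes of -0.19 to 0.49, with adjusted p from 0.899 to 0.979. The translational efficiency of Nrgn in the DS, the genotype difference in heavy fractions less that in lysates, was -0.01 ± 0.20, and -0.41 with the coding length trend removed.

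In the Acb none of the 6 genes passed the test between genotypes in either kind of RNA. In whole lysates 0.00650% of 15393 genes (1 gene) did. Nrgn was at 470, 422 and 495 CPM in wild-type and 404, 549 and 561 CPM in rpS6P-/- replicates (0.12 ± 0.12, 95% interval -0.11 to 0.35, adjusted p = 1.0). The difference between regions in the genotype effect was not tested. Slc17a7 was at 118, 62.5 and 55.1 CPM in wild-type and 50.8, 113 and 146 CPM in rpS6P-/- lysates (0.38 ± 0.22, adjusted p = 1.0). Slc17a6 had no overlap, at 19, 20 and 18 against 17.6, 11.5 and 15.8 CPM (-0.35 ± 0.28, adjusted p = 1.0), as had 8.37% of all genes.

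In heavy polysomal fractions of the Acb 0 of 6 genes passed, and 0.00% of 16227 genes did in edgeR. An unadjusted p under 0.05 was found for 3518 genes, and DESeq2 called 1090. Nrgn was at 886, 708 and 719 CPM in wild-type and 695, 564 and 476 CPM in rpS6P-/- replicates, without overlap, as for 25.0% of all genes (-0.38 ± 0.17, unadjusted p = 0.0357, adjusted p = 0.201). With a trend on coding length removed its direction was turned (0.40, adjusted p = 0.185). Slc17a7 was at 164, 65.0 and 53.4 CPM in wild-type and 116, 72.8 and 116 CPM in rpS6P-/- replicates (0.14 ± 0.31, adjusted p = 0.846). The remaining 4 genes had log2 fold changes of -0.24 to 0.53, all with overlap. In the test of translational efficiency 0 of 6 genes and 0.00% of 16687 genes passed in edgeR, with an unadjusted p under 0.05 for 1992 genes, and DESeq2 called 0. Nrgn had -0.51 ± 0.22 there (unadjusted p = 0.0237, adjusted p = 0.346) and 0.23 with the length trend removed.

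Genes whose levels followed those of Slc17a7 and Nrgn were sought among 11979 genes with at least 50 reads per library on average, with the 6 genes themselves left out of the ranking. Over all 24 libraries, Pearson's r of log2 CPM with Slc17a7 was 0.983 for Neurod6, 0.970 for Neurod2, 0.944 for Tbr1, 0.921 for Nrgn and -0.88 for Slc17a6. Outside the 6 genes it was highest for 3110035E14Rik (0.976), Bdnf (0.967), Olfm1 (0.966), R3hdm1 (0.964) and Rtn4r (0.961). Over the 12 whole lysates it was 0.983 for Neurod2 and 0.982 for Neurod6, and outside the 6 genes it was highest for Mical2 (0.985), Ctgf (0.984), 3110035E14Rik (0.983), Stx1a (0.982) and Nptx1 (0.982). For Nrgn the leading genes outside the 6 over 24 libraries were Kctd17 (0.987), Efhd2 (0.986), Camkk2 (0.976), Sept5 (0.975) and Cck (0.973), and over the 12 lysates Kctd17 (0.992), Efhd2 (0.992), Dlgap1 (0.986), Osbpl1a (0.986) and Ncald (0.985). Of these, Bdnf is a neurotrophin made by cortical neurons, Rtn4r the Nogo receptor, Stx1a a syntaxin of synaptic vesicle release, Camkk2 a kinase activated by calmodulin and Cck a neuropeptide of cortical neurons. The libraries behind these values share the split into 2 regions and the split into 2 kinds of RNA, and no test was made. The lists for the 2 genes had no leading gene in common.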

How the data were processed

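Polysome-bound and total RNA of the Acb and DS were measured by stranded poly(A) RNA-seq. The raw read counts per gene were made and deposited by the authors with TopHat2 2.0.13, Bowtie2 2.2.3 and HTSeq 0.6.1p1 on mm10, with neither normalization nor filter, and were used here as deposited (0 columns were left unmapped). The sources differ on how many mice were pooled per library. Replicates of a group differed far beyond sampling noise (chi-square per degree of freedom 15.5 to 89.2 over 24 pairs), so none was counted as a duplicate. Groups were taken from the labels.

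Genes with at least 15 reads over the libraries compared were tested with edgeR 4.0.16 in R 4.3.3 (TMM, quasi-likelihood F test, Benjamini-Hochberg adjustment over all genes tested, threshold 0.05), each comparison on its own libraries. Log2 CPM used a prior count of 2, and the script was tested on simulated data. Alternatives were DESeq2 1.42.0, its size factors, filterByExpr, no filter, a replicate block, removal of a loess trend on coding length (span 0.5; 20428 genes with a length), Bc1 left out, and each library left out in turn. Lengths and positions came from annotations of GRCm38, promoters from RefSeq. Values were drawn with matplotlib 3.10.9.

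The members and the gene lists (other cortical, claustrum, thalamic, medium spiny neuron, glial, vascular and choroid plexus markers, glutamate supply, NeuroD and T-box factors, calmodulin partners and dendritic mRNAs) were chosen with earlier results of these data known. All 6 genes are named with their values, of each list up to 4 genes with the highest mean CPM (a few of these are not reported here), and any further gene was named after its values were seen. The methods take lysate and heavy fractions from the same samples but give no library numbers, so the match by number rests on the labels. Correlations of residuals between heavy and lysate libraries with the same number were -0.0376 to 0.0743 over 12 pairs, with 0 over 0.1. The values thus gave no sign of this match. Numbers shared between genotypes or regions were not used as pairs outside the replicate block. p-values measure the spread between these pools.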

Additional observations from a re-analysis of the deposited data

How the results depend on the processing

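The region differences of all 6 genes and the heavy-to-lysate differences of Slc17a7, Tbr1, Neurod2 and Nrgn in the DS and of Nrgn in the Acb kept direction and call in every setting run, those without 1 library included. With other settings than leaving out a library, 280 of 288 values of the 6 genes in the comparisons that were tested kept direction and call. A value without an adjusted p was counted as not called. DESeq2 gave none between genotypes in Acb heavy fractions for Slc17a6, Tbr1, Neurod6 and Neurod2. Exceptions with the coding length trend removed were the genotype values of Slc17a7 (-0.04) and Nrgn (0.40) in Acb heavy fractions and of Nrgn in DS heavy fractions (-0.85, then past the threshold), the translational efficiency of Tbr1 (-0.11) and Nrgn (0.23) in the Acb, and Neurod6 between heavy fractions and lysates of the DS (0.04, no longer called, as with Bc1 left out, 0.28). With the replicate block, Neurod2 in Acb heavy fractions was at 0.11. The block changed no other call of the 6 genes. Sizes moved as well: over settings other than leaving out a library, Nrgn between regions in heavy fractions was at -2.65 to -2.04. The causes were not tested.

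Genes called between genotypes numbered 0 in Acb heavy fractions, against 1090 with DESeq2, 549 without a filter, 98 with the replicate block, 2 with the length trend removed and 0 to 3 without 1 library. In Acb lysates 1 was called, against 0 with filterByExpr, 2 without a filter, 5 with the replicate block and 0 to 3 without 1 library. In DS heavy fractions 7 were called, against 17 with DESeq2, 1 with filterByExpr, 37 without a filter, 31 with the replicate block, 14 with the length trend removed and 0 to 29 without 1 library. In DS lysates 19 were called, against 95 with DESeq2, 2 with filterByExpr, 66 without a filter, 71 with the replicate block and 1 to 56 without 1 library. For translational efficiency 0 were called in the Acb, against 107 without a filter, 106 with the replicate block and 0 to 81 without 1 library. In the DS edgeR called 0 (811 genes had an unadjusted p under 0.05, and DESeq2 called 0), against 5 without a filter, 6 with the replicate block, 1 with the length trend removed and 0 to 12 without 1 library. Outside the replicate block, numbers shared between genotypes or regions were not used as pairs. Residuals of same-numbered libraries correlated at -0.294 to 0.319 between genotypes (2 of 12 over 0.1) and -0.255 to 0.217 between regions (1 of 12). Such correlations cannot show whether these libraries shared a preparation.

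Leaving out 1 library turned the sign of 33 values in the comparisons that were tested, none of them past the threshold. In Acb heavy fractions the genotype values ranged from -0.15 to 0.82 (Slc17a7), -0.71 to 0.54 (Neurod6) and -0.34 to 0.38 (Neurod2). In Acb lysates they ranged from -0.24 to 0.73 (Tbr1), -0.12 to 1.06 (Neurod6) and -0.41 to 1.68 (Neurod2), and in DS heavy fractions from -0.17 to 0.04 (Slc17a7) and -0.24 to 0.09 (Tbr1). Heavy against lysate in the Acb ranged from -0.23 to 0.25 (Slc17a7), -0.35 to 0.21 (Tbr1) and -0.03 to 0.70 (Neurod6). Translational efficiency in the Acb ranged from -0.67 to 0.43 (Slc17a7), -0.30 to 0.77 (Tbr1) and -1.69 to 0.43 (Neurod2). In the DS the translational efficiency of Nrgn, given without a test, moved to -0.41 with the length trend removed. In DS lysates, where no test was made either, and without 1 library, the values of Slc17a7, Slc17a6, Tbr1 and Neurod6 stayed between -0.41 and 0.15. Depth limits Neurod6 and Neurod2 in the Acb, where some libraries held 10 and 12 reads.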
